A study of Mus musculus with 2 samples.

Results

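The Notch pathway genes described here are 10 mouse genes, the receptor genes Notch1, Notch2, Notch3 and Notch4, the ligand genes Dll1, Dll4, Jag1 and Jag2, the gene of the DNA-binding partner Rbpj, and the target gene Hes1. They were listed by their place in the pathway, with earlier results of these data known. They are 10 of the 22367 protein-coding genes of the GENCODE M1 annotation on the mm9 (NCBIM37) mouse genome. A ChIP-seq peak was assigned to one of them when its summit, the position of highest signal, lay in the gene or within 50 kb of either end. This gave 67 of the 23308 peaks of the 3HA-Rfx6 library, and 9 of the 10 genes had at least 1.

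Rfx6 is a winged-helix transcription factor of the RFX family that acts in pancreatic endocrine cells and binds the X-box, an imperfect palindrome. Its binding was measured in Min6b1 cells, a mouse insulin-secreting β cell line grown in 25 mM glucose, transfected with 24 µg of the plasmid pCMV-Tag2A-3HA-Rfx6 and collected 2 days later for precipitation with the anti-HA antibody 12CA5. The protein was thus a tagged copy driven by a viral promoter in addition to whatever Rfx6 the cells made themselves. The control was an anti-HA precipitation of cells labelled only as Min6b1, although the growth description filed with it repeats the transfection, and there was 1 library of each kind, with 33949757 and 3567375 reads left after removal of repeated positions. No replicate error and no p-value could therefore be given, intervals cover counting error only, and the control entered only through the peak calling. A peak list holds no expression values, so neither the identity of the cells nor the expression of the Notch genes could be checked.

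Notch receptors are membrane proteins that are cut when a Delta-like or Jagged ligand on a neighbouring cell binds them. The freed intracellular domain enters the nucleus, joins Rbpj and activates target genes such as Hes1. In the developing pancreas this signal is known to hold progenitors back from the endocrine fate by repressing Ngn3, the factor upstream of Rfx6.

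Sequences at the summits are shown first, because the X-box was not used to choose the genes and is the site to which RFX proteins bind. They are written 5′ to 3′ on the strand of the Notch gene, on mm9, with an X-box match in capitals. A strict pattern, with both arms of the palindrome nearly complete around a short spacer, was found within 100 bp of 6 of the 67 summits. The shorter stretches around these matches are given with the Notch gene in whose window they lie. For all 6 summits the nearest start was that of a gene other than the listed one. The match at Notch4 and the one near Agpat1 cover the summit itself. The match in intron 21 of Notch2 was 72 bp from the summit of a peak of 38 reads, nearest to Adam30 at 35.6 kb.
Notch1 window, near the start of Sec16a, chr2:26301424-26301476, minus strand: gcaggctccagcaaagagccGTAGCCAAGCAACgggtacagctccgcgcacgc
Notch2, intron 21, chr3:97929194-97929246, plus strand: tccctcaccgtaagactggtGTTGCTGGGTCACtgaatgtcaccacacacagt
Notch3 window, upstream, chr17:32316808-32316861, minus strand: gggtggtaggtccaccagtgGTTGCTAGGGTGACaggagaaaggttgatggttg
Notch4, intron 28, chr17:34723907-34723936, plus strand: gactgtcgGTTGCCAGGGCAACgcttcccg
Notch4 window, near the start of Agpat1, chr17:34741044-34741097, plus strand: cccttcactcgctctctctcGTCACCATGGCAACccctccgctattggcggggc
Dll1 window, near the start of Fam120b, chr17:15533020-15533072, minus strand: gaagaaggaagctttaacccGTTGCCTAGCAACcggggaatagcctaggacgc
The next 5 sequences are the 101 bases centred on high peaks that lay nearest to a start of the listed gene itself or, for Notch1, had the most reads of all 67. They are chosen examples, and the share of matches among them is not that of all high peaks. The Notch2 summit beside the start held no match of either pattern. The others shown held a match of a relaxed pattern in which fewer bases of the palindrome are fixed. Neither pattern was found within 100 bp of high summits of Dll1 (342 reads), Notch3 (187 reads), Jag2 intron 5 (183 reads) and Notch1 intron 2 (170 reads). A relaxed match was found at summits 11.8 kb upstream of Notch1 (170 reads) and 3.25 kb downstream of Notch3 (160 reads). All of these were also nearest to the gene's own start and are not shown.
Notch1, upstream, 409 reads, chr2:26416390-26416490, minus strand: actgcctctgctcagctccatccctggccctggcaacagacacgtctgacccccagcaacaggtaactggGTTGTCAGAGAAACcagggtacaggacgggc
Notch2, intron 1, 204 reads, chr3:97817688-97817788, plus strand: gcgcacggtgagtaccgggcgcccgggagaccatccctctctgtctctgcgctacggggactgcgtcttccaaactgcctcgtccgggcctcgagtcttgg
Jag2, intron 2, 238 reads, chr12:114165235-114165335, minus strand: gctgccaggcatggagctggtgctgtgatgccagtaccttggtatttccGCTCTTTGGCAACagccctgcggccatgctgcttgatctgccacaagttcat
Rbpj, 148 reads, chr5:53980901-53981001, plus strand: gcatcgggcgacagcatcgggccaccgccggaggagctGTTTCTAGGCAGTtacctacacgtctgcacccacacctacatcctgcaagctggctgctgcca
Hes1, upstream, 201 reads, chr16:30057016-30057116, plus strand: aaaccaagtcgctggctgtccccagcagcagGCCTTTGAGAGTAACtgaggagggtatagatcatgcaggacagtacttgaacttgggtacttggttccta

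The first comparison asked whether Rfx6 peaks lay at Notch genes more often than at other genes. Peaks lay within 50 kb of 9 of the 10 genes (90%, 95% Wilson interval 59.6 to 98.2), beside 67.8% of all protein-coding genes. Long genes have more room for a peak, so each gene was also set beside the 200 protein-coding genes nearest to it in length, of which 74.7% on average had a summit, equal to 7.47 genes in 10. The share of genes with a peak was therefore little above that of genes of the same length, and the interval included both. The number of peaks differed more. The 10 genes had a median of 5.5 summits and a mean of 6.7, against a median of 1 and a mean of 2.42 for all protein-coding genes. Their sum of 67 summits stood beside 27.1 when the means of the genes of similar length were added up. Above its own median of similar length were 8 of the genes, Rbpj was equal to it with 2, and Jag1 was below it with 0. Around the 10 genes there were 4.63 summits per 100 kb, compared with 1.87 around the genes of similar length, and with 1.25 per 100 kb of the effective genome size set for the peak calling.

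**Figure D1:**
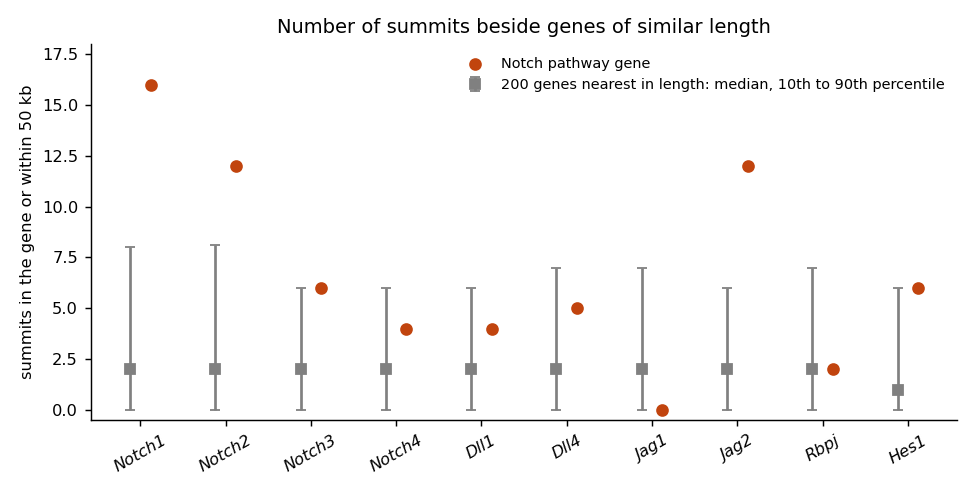
Number of summits in each Notch pathway gene or within 50 kb of it (orange), beside the median (grey square) and the 10th to 90th percentile (grey bar) of the 200 protein-coding genes nearest in length. Notch1 with 16, Notch2 with 12 and Jag2 with 12 lie above the grey bars, Hes1 and Notch3 with 6 reach the ends of theirs, and Jag1 lies at 0.

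Most of this surplus came from Notch1, Notch2 and Jag2, which held 40 of the 67 summits between them. Notch1 had 16, a number reached or exceeded by 0.407% of protein-coding genes and by 2 of the 200 genes of similar length. Notch2 and Jag2 had 12 each, reached by 5.5% and 1.5% of the genes of their length. Hes1 had 6 summits, a number reached by 11% of genes as short as it is. Notch3 had 6 (13.5%), Dll4 had 5 (21%), Dll1 had 4 (30%), Notch4 had 4 (22%) and Rbpj had 2 (64.5%), with the share of genes of their length that had as many in parentheses. A start of the gene itself was nearest for 6 of the 16 summits of Notch1, 5 of the 12 of Notch2 and 4 of the 12 of Jag2. The windows also held other protein-coding genes, given here with the median of genes of similar length in parentheses. These were 2 (2) for Notch1, 1 (2) for Notch2, 2 (2) for Notch3, 10 (3) for Notch4 and 1 (3) for Dll1. There were 3 (3) for Dll4, 1 (2) for Jag1, 5 (2) for Jag2, 1 (2) for Rbpj and 0 (3) for Hes1. The part of neighbouring genes in the counts was not tested.

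Peaks inside the genes and strong peaks were also counted. A summit lay inside 7 of the 10 genes, compared with 31.3% of all protein-coding genes, and these were all except Notch3, Jag1 and Hes1. Among the genes of similar length, the share with a summit inside ran from 9% for Hes1 to 59% for Notch2 and Rbpj. A peak among the 10% with the most reads, which means at least 182, lay in or within 50 kb of 7 genes, compared with 18.6% of all genes, and was missing only at Notch4, Jag1 and Rbpj. Within 1 kb of a start of one of the gene's own protein-coding transcripts there was a summit at 5 genes, compared with 22.7% of all genes. The distances were 277 bp for Notch2, 461 bp for Jag2, 464 bp for Dll4, 503 bp for Rbpj and 771 bp for Dll1.

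Of the 67 summits, 26 lay in the genes, 21 upstream and 20 downstream. Of those inside, 23 were in introns and 1, at Jag2, was in a coding exon, while those of Dll1 and Rbpj lay in the gene but upstream of the transcript used for numbering. A start of the listed gene itself was the nearest start of a protein-coding gene for 29 summits, with a median of 112 reads. The start of another gene was nearest for the other 38, with a median of 68 reads. These numbers were not set beside those of other genes. Among these 38 were 10 that lay inside a listed gene, namely 7 in Notch2, 2 in Notch1 and 1 in Notch4, and 7 lay within 1 kb of the other gene's start. The farthest summit inside it, 49.7 kb downstream of Notch1 with 220 reads, was 917 bp from the start of Inpp5e, and the first one outside any of the windows lay 53.8 kb from Notch1 with 56 reads.

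**Figure D2:**
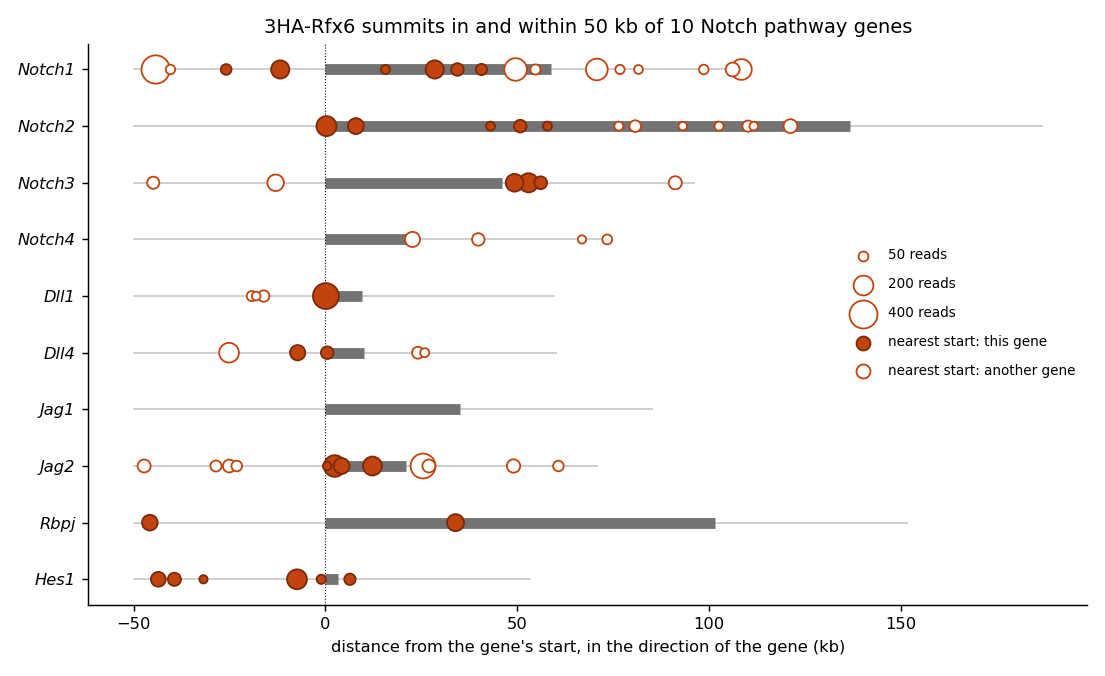
Position of the 67 summits along the 10 genes, in kb from the start of the gene in its own direction (grey bar, the gene; thin line, the 50 kb on either side). The area of a circle follows the number of reads, a filled circle has the listed gene's own start as its nearest start and an open one that of another gene. All 6 circles at Hes1 and both at Rbpj are filled, all 4 at Notch4 are open, and the row of Jag1 is empty.

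The receptor genes took 38 of the summits. Notch1, the receptor best known for restraining endocrine differentiation, lies at chr2:26313423-26372183 on the minus strand and is 58.8 kb long. Its highest peak, which had the most reads of all 67, contained 409 reads (95% exact Poisson interval 370 to 451) at a 48.26-fold enrichment over the background, and its summit lay 44.3 kb upstream. No start was close to it, the nearest being that of Egfl7 at 19.1 kb. The MACS FDR of this peak was 17.56% and was the largest of the 67, whose median was 3.48%.

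Inside Notch1 the summits lay in introns 2, 4, 15, 26 and 33, and intron 2 held a pair of them. The strongest of these, in intron 26, had 260 reads (229 to 294) at 18.64-fold, and the stronger of the pair in intron 2 had 170 reads (145 to 198) at 16.48-fold. The others inside the gene had 43 to 81 reads. A further peak of 170 reads and 22.83-fold lay 11.8 kb upstream with the start of Notch1 as its nearest start. Farther upstream were peaks of 59 reads at 25.9 kb, nearest to Notch1, and 46 reads at 40.4 kb, nearest to Egfl7. On the downstream side there were 6 summits, of which the one with 240 reads (211 to 272) lay 684 bp from a start of Sec16a and carried the strict X-box shown above. The remaining downstream peaks had 40 to 98 reads, apart from the one at Inpp5e. The intervals of the peaks with 220, 240 and 260 reads overlapped each other, and that of the peak with 409 reads overlapped none of them.

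Notch2, a receptor also present in pancreatic progenitors, lies at chr3:97817461-97954290 on the plus strand. All 12 of its summits were inside the gene, all in introns, and 1.5% of the genes of similar length had as many inside. The highest peak had 204 reads (177 to 234) at 29.42-fold and lay in intron 1, 277 bp from the start. The second, 7.94 kb into the same intron, had 130 reads (109 to 154) but an enrichment of only 5.77-fold. The other 10 had 37 to 98 reads, and 7 of the 12 were closer to the start of Adam30, a gene beyond the 3′ end, than to that of Notch2, at distances of 26.0 to 70.8 kb.

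Notch3, a receptor known mainly from vascular smooth muscle, lies at chr17:32257765-32303825 on the minus strand and had no summit inside, whereas 44.5% of genes of its length had one. Its highest peaks lay beyond the 3′ end. One of 187 reads (161 to 216) at 26.36-fold was 6.91 kb and one of 160 reads (136 to 187) at 23.54-fold was 3.25 kb downstream, and one of 84 reads was at 10.1 kb. These 3 were nearer to the start of Notch3 than to any other, although they were 49.3 to 56.1 kb away from it. Upstream, a peak of 140 reads (118 to 165) and again 26.36-fold, 13.0 kb from Notch3, was nearest to Ephx3 at 9.61 kb and held a strict X-box. The intervals of these top 3 peaks overlapped. The remaining peaks had 88 reads 45.2 kb downstream, nearest to Rrp1b, and 75 reads 44.9 kb upstream, nearest to Ephx3.

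Notch4, a receptor characteristic of endothelial cells, lies at chr17:34701213-34725448 on the plus strand among 10 other protein-coding genes in the window. It had 1 summit inside, in intron 28 near its 3′ end, with 117 reads (96.8 to 140) and 16.95-fold enrichment, whose nearest start was that of Gpsm3 at 2.83 kb. The other 3 were downstream, with 80 reads 135 bp from a start of Agpat1, 50 reads nearest to Fkbpl and 35 reads nearest to Prrt1. None of the 4 had Notch4 as its nearest start, and 2 of them carried a strict X-box covering the summit.

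**Figure D3:**
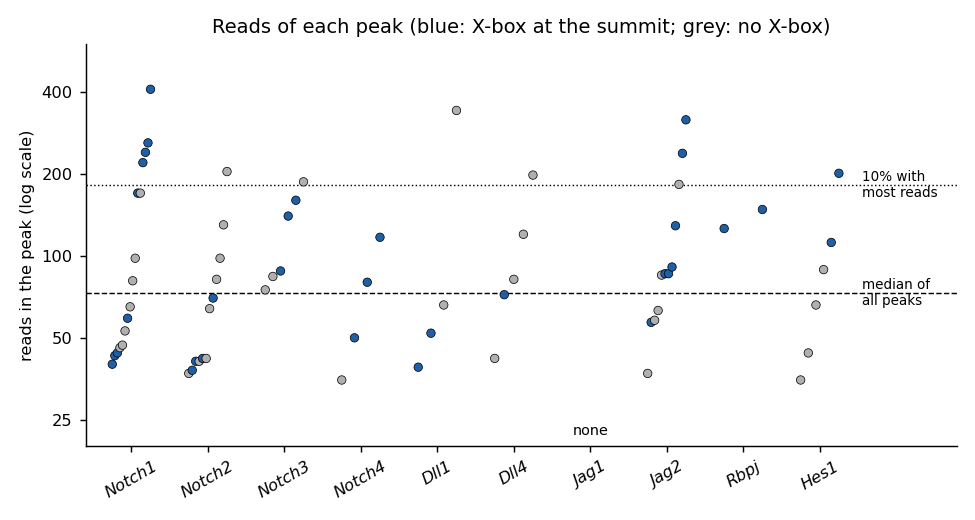
Reads of each of the 67 peaks on a log scale, by gene, in order of reads within a gene. Blue points have a strict or relaxed X-box within 100 bp of the summit and grey points have neither, the dashed line is the median of all 23308 peaks (73 reads) and the dotted line is the limit of the 10% with the most reads (182 reads). The points reach from 35 to 409 reads, 12 of them lie on or above the dotted line, and Jag1 has none.

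The ligand genes had 21 summits, unevenly divided. Dll1, the ligand that drives lateral inhibition in the early pancreas, lies at chr17:15504318-15513836 on the minus strand. Its highest peak had 342 reads (307 to 380) at 19.77-fold, the most reads of any summit within 1 kb of a listed gene's own start. It was located 771 bp before the protein-coding transcript Dll1-001 begins and 125 bp inside the gene, in the span of a noncoding transcript. The other 3 peaks, 16.1 to 19.2 kb upstream, had 39 to 66 reads and were all nearest to Fam120b, 1 of them 171 bp from its start with a strict X-box.

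Dll4, a ligand best known in blood vessel sprouting, lies at chr2:119151520-119161698 on the plus strand. It had a peak of 198 reads (171 to 228) 25.1 kb upstream, at 10.59-fold, nearest to Vps18 at 11.9 kb. A peak of 120 reads (99.5 to 143) at 11.9-fold lay 7.23 kb upstream and one of 82 reads (65.2 to 102) at 7.77-fold lay in intron 1, 464 bp from the start, and both had Dll4 as the nearest start. By fold enrichment the peak at 7.23 kb was the leading one. Downstream, 2 peaks of 72 and 42 reads were nearest to Chac1.

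Jag1 and Jag2, which encode the Jagged ligands, had the fewest and the most summits among the ligand genes. Jag1 lies at chr2:136907192-136942380 on the minus strand, and no summit was within 50 kb or even within 100 kb of it. The nearest were 188 kb downstream, with 73 reads at 9.42-fold, and 1140 kb upstream, with 48 reads at 8.0-fold. Of the 200 genes of similar length, 49 (24.5%) also had no summit within 50 kb. A peak list shows only what passed the calling threshold, and weaker binding at Jag1 could not be judged from it.

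Jag2 lies at chr12:114146801-114167706 on the minus strand and had 12 summits, 4 in the gene, 4 upstream and 4 downstream. By reads the first was a peak of 316 reads (282 to 353) 4.55 kb downstream, at 13.62-fold, nearest to Gm17723 at 10.5 kb. By fold enrichment and by score the first was the peak of 238 reads (209 to 270) in intron 2, at 33.43-fold, 2.42 kb from the start of Jag2 and with a relaxed X-box covering the summit. Also in the gene were a peak of 183 reads (157 to 212) at 27.07-fold in intron 5, one of 129 reads (108 to 153) in intron 2 and one of 37 reads (26.1 to 51.0) in coding exon 2, 461 bp from the start. The 4 upstream peaks had 58 to 86 reads and lay nearest to Nudt14 or Btbd6. The other downstream peaks had 57, 86 and 91 reads and lay nearest to Gpr132 or Gm17723.

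The nuclear end of the pathway had 8 summits, and all of them had the listed gene as the nearest start. Of these, 6 were at Hes1, whose window held no start of another protein-coding gene. Rbpj, the DNA-binding protein through which all Notch receptors act, lies at chr5:53947018-54048684 on the plus strand. Its peak of 148 reads (125 to 174) at 16.48-fold lay 503 bp upstream of the start of the transcript Rbpj-201, 33.9 kb into the gene as annotated, with a relaxed X-box at the summit. The other had 126 reads (105 to 150) at 9.65-fold and lay 45.8 kb upstream of the gene. The intervals of the pair overlapped.

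Hes1, the repressor that carries the Notch signal to Ngn3, lies at chr16:30064470-30067882 on the plus strand with no other protein-coding gene in its window. None of its 6 summits was in the gene. The highest had 201 reads (174 to 231) at 31.07-fold, 7.40 kb upstream, and 5 bp separated it from the relaxed X-box printed above. Further upstream were peaks of 112 reads at 43.6 kb, 89 reads at 39.4 kb and 35 reads at 31.8 kb. Closest to the gene were a peak of 44 reads 1.08 kb upstream and one of 66 reads at 11.53-fold 2.99 kb downstream, whose intervals (32.0 to 59.1 and 51.0 to 84.0) lay below that of the highest peak.

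Ordered by reads, the leading peaks of the 9 genes were those of Notch1 (409), Dll1 (342), Jag2 (316), Notch2 (204), Hes1 (201), Dll4 (198), Notch3 (187), Rbpj (148) and Notch4 (117). Neighbours in this order had overlapping intervals, except that the interval of Jag2 lay above that of Notch2. The read numbers of these peaks depend on the width of the called interval as well as on its height, so the order is that of the deposited values. As a group the 67 peaks had a median of 82 reads against 73 for all peaks, and a median enrichment of 9.18-fold against 8.54-fold. Among them 12 (17.9%, Wilson interval 10.6 to 28.7) belonged to the 10% with the most reads, a class that held 10.1% of all peaks because of ties.

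The place of the summits in annotation classes was close to that of all peaks. Introns held 38.8% of the 67 (28.0 to 50.8) and 45.5% of all summits, and intergenic sequence held 47.8% (36.3 to 59.5) and 40.3%. Coding exons of any gene held 7.46% (3.23 to 16.3) and 7.12%. A start of any protein-coding transcript of a protein-coding gene lay within 1 kb for 17.9% (10.6 to 28.7), against 21.0% of all peaks.

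The second comparison asked whether the summits at Notch genes carried the X-box as often as others. Both strands of the 200 bp around each summit were searched, and a match describes letters only. A relaxed X-box was present at 32 of the 67 summits (47.8%, 36.3 to 59.5), compared with 46.0% of all peaks. In windows 1 kb to the right, it was found in 16.4% (9.42 to 27.1) for the Notch summits and 23.0% for all. The strict pattern was present at 6 summits (8.96%, 4.17 to 18.2), compared with 6.44% of all peaks, and in 0 of the 67 shifted windows, with an upper Wilson bound of 5.42%. The separate arms GTTGC or GCAAC were found at 52.2% (40.5 to 63.7), compared with 56.1% of all peaks. For each pattern the interval of the Notch summits included the value of all peaks, so no difference was detectable with 67 summits. The patterns overlap only in part, because a strict match need not satisfy the relaxed one.

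**Figure D4:**
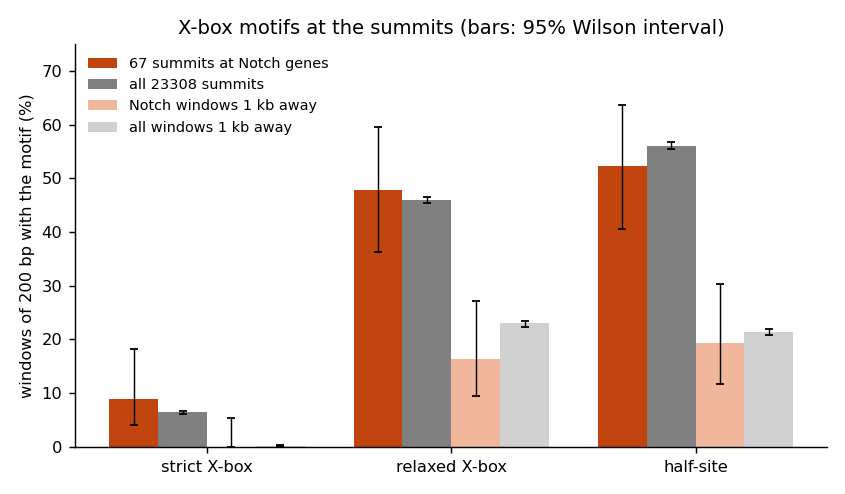
Share of 200 bp windows that hold a strict X-box, a relaxed X-box or one arm of it, in percent, for the 67 summits at Notch genes (orange), all 23308 summits (dark grey) and windows 1 kb to the right of each (light colours). Black lines are 95% Wilson intervals, and for each pattern the orange and dark grey bars are close to each other and above the light ones, with the interval of the strict orange bar (4.17 to 18.2) overlapping that of its shifted windows.

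The numbers of summits per gene were small for a reading of X-boxes gene by gene, and 46.0% of all peaks held a relaxed match. A relaxed match lay at 9 of the 16 summits of Notch1, 3 of 4 at Notch4, 3 of 6 at Notch3 and 7 of 12 at Jag2, at both summits of Rbpj, at 3 of 12 at Notch2, 2 of 4 at Dll1, 2 of 6 at Hes1 and 1 of 5 at Dll4. At the 5 summits within 1 kb of a listed gene's own start there was 1 relaxed match, that of Rbpj, and 0 strict ones, with 60.7% to 75.1% of bases G or C and 11 to 34 CpG pairs in the window. At the other 62 summits there were 31 relaxed and 6 strict matches, with a median of 54.95% G or C and 2.5 CpG pairs. The 5 windows were too few to compare these shares. In promoters from RefSeq on GRCm38, 11 sequences covered 9 of the 10 genes, all but Hes1. No strict X-box was found in them (1.53% of the 32851 promoters of all genes hold one). A relaxed one was held by 6 of the sequences, which belong to Dll1, Jag1, Notch4 and Rbpj, and by 34.7% of all promoters. Jag1 thus had the relaxed letters near its start, as many promoters do, but no peak.

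The rest of the pathway was taken from a list of 46 further genes, ordered by role. Of these 43 (93.5%, Wilson interval 82.5 to 97.8) had a summit within 50 kb, beside the 67.8% of all genes given above, 25 had one inside, compared with 31.3% of all genes, and 16 had one among the 10% with the most reads, compared with 18.6%. These 46 genes were not set beside genes of similar length. The 3 with none were Adam10, Maml2 and Hey2. All of the 7 ligand-side genes, the 6 genes that modify receptors and the 9 genes of inhibitors and turnover had a summit, as did 8 of 9 protease genes, 8 of 9 nuclear partners and 5 of 6 targets. Aph1b and Aph1c, neighbouring genes, had the same highest peak in their windows, nearest to the start of Aph1b.

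Among proteins that act on ligands, Neurl1a, a ubiquitin ligase for Delta proteins, had 184 reads 686 bp from its start at 32.25-fold, and Neurl1b, a relative of it, had 345 reads 33.0 kb upstream at 17.66-fold. Among modifiers of the receptors, Lfng, a sugar transferase that tunes the choice of ligand, had 229 reads 605 bp from its start at 12.48-fold. The related Rfng had 239 reads, but 619 bp from the start of Fasn. Pofut1, which adds fucose to Notch, had 249 reads nearest to Kif3b, and Furin, the convertase that matures the receptor, had 216 reads 878 bp from Unc45a. Thus Lfng was the only one of these 4 whose own start was nearest to its highest peak.

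Among nuclear partners, Spen, a corepressor, had 251 reads in an intron at 31.54-fold. The highest peak at the coactivator gene Ep300 had 358 reads but lay 41.7 kb downstream in a coding exon of Chadl.

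Inhibitors and targets had the highest peaks of the list, mostly beside other genes. Numbl, an antagonist of Notch, had 586 reads at 67.32-fold, 92 bp from a start of Adck4, and Dtx1, a ubiquitin ligase, had 522 reads 45.6 kb downstream, nearest to Rasal1. Itch, a ligase that degrades Notch, had 182 reads nearest to Map1lc3a. Nrarp, a feedback inhibitor that is itself switched on by Notch, had 322 reads 3.69 kb upstream at 16.71-fold with its own start nearest and a strict X-box. Of the target genes, Hes5 had 633 reads in an intron of Plch2, 45.9 kb downstream, and Hes6 had 268 reads in an intron of Per2, 37.3 kb upstream.

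**Figure D5:**
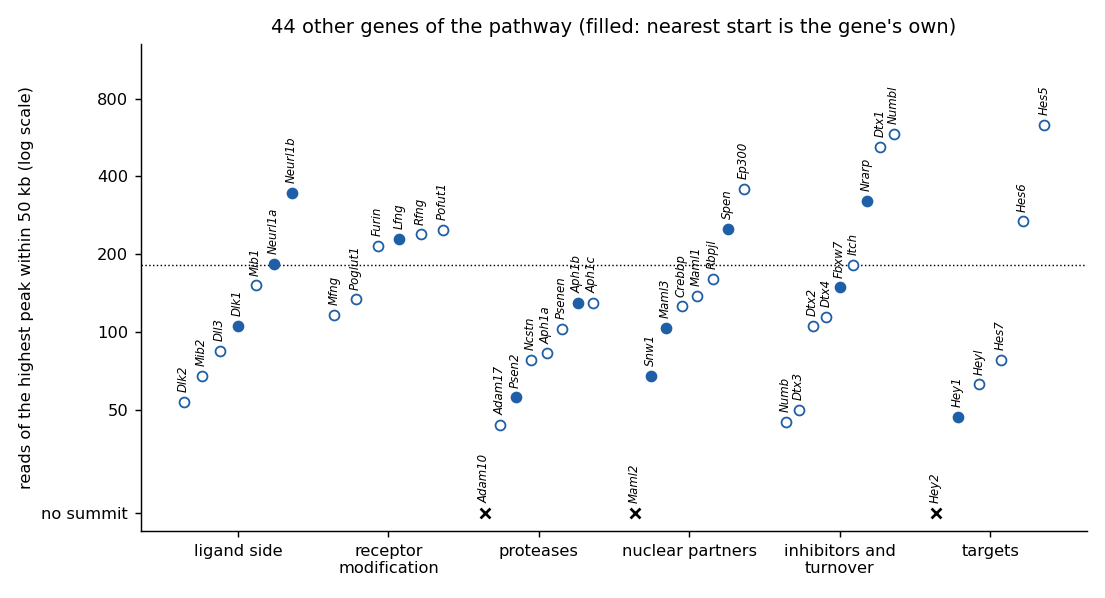
Reads of the highest peak in or within 50 kb of 44 of the 46 other genes of the pathway, on a log scale, by role. Filled points have the gene's own start nearest, open points another gene's, crosses mark Adam10, Maml2 and Hey2 without a summit and the dotted line is the limit of the 10% with the most reads (182 reads). Of the 14 genes drawn on or above the line, Neurl1a, Neurl1b, Lfng, Spen and Nrarp are filled.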

How the data were processed

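ChIP-seq with an anti-HA antibody was performed in 3HA-Rfx6 transfected Min6b1 cells and in a control, with 1 library each. Per the submitters' processing notes, the authors used CASAVA 1.8.2, mapped reads with Bowtie (version not given in the sources used here) to mm9 and called peaks with MACS 1.4.2. The file header gives a p-value cutoff of 1e-05, a band width of 300 bp and 1 read kept per position, with the smaller dataset scaled towards the larger. The control retained 3567375 of 16911298 reads (21.1%) and the 3HA-Rfx6 library 33949757 of 49443917 (68.7%). In retained reads the 3HA-Rfx6 library was thus 9.52 times as deep, and the effect of this on enrichment and FDR was not tested. The deposited values of a peak are the raw count of 3HA-Rfx6 reads, the fold enrichment (a ratio to the expected background), a score (the p-value as log10, multiplied by minus 10), and a percent FDR obtained by exchanging the libraries. The control's own file was not used here.

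Summits (start plus summit offset) were placed on NCBIM37 with GENCODE M1. Starts are those of protein-coding transcripts, and introns are numbered in the protein-coding transcript chosen for each gene. Genes of similar length were the 200 nearest. Intervals are 95% Wilson or exact Poisson. The members and lists were chosen with earlier results of these data known. Named are all 10 genes with their summits, the other pathway genes with a peak among the 10% with the most reads or with no summit, and genes whose start is nearest to a summit. Of the other pathway genes, 2 stay in the counts but are not reported here by name or value. Nothing was tested between groups. Gene assignment and motif search were checked on simulated data. Alternatives were stricter peak sets, other distances, rankings, X-box patterns and windows, and other numbers of genes of similar length. Python 3.11.15, pandas 2.3.3, numpy 2.4.6, scipy 1.17.1, pysam 0.24.0 and matplotlib 3.10.9 were used.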

Additional observations from a re-analysis of the deposited data

How the results depend on the processing

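With 1 library per condition no replicate could be left out. No paired analysis was possible because no replicates exist. The number of Notch genes with a summit was 9 under all peak sets, distances and positions tried, except 7 inside the genes, 8 where only summits nearest to the gene's own start counted (chosen after seeing the data) and 0 at an FDR of at most 1%, which keeps 10 of the 23308 peaks. With a fold enrichment of at least 10, these 9 genes stood beside 45.6% of all genes. The share of all genes was 51.1% with the 50% of peaks with the highest scores and 0.125% at that FDR. It was 47.1% within 10 kb, 76.7% within 100 kb and 31.3% inside. Of the 67 summits, 41 remained among the 50% of peaks with the highest scores, 29 at a fold enrichment of at least 10, 0 at that FDR, 34 within 10 kb, 26 inside and 29 nearest to the own start. Of all 23308 peaks, 11654 remained by score and 9223 at the fold limit. The share with a relaxed X-box was 62.1% at the fold limit (50.8% of all such peaks). It was 34.6% inside (9 of 26) and 34.5% nearest to the own start (10 of 29), beside 46.0% of all 23308 peaks at any position. In windows of 100 bp it was 32.8% (31.5% of all), and the strict X-box stood at 8.96% (6.44% of all). At that FDR the share with a relaxed X-box could not be computed. Of the other 46 pathway genes, 43 fell to 27 at the fold limit (45.6% of all genes) and 25 inside (31.3% of all genes). They fell to 28 by own start, for which no share of all genes was computed. At that FDR 1 was left, Dtx1, named after its value was seen. The leading peak was the same by fold enrichment for 7 of 9 genes, all but Dll4 and Jag2, and by score for 8, all but Jag2. With 100 or 400 genes of similar length, the share with a summit was 74.5% and 74.1%. The causes of these changes were not tested, beyond the fewer peaks or shorter distances that define the settings.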
